A study of Mus musculus with 47 samples.

Results

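The comparison described here set diestrus against estrus in the parts of the mouse brain outside the neocortex. It used all 18 diestrus and estrus libraries of the hypothalamus, hippocampus and cerebellum, of 47 libraries in the series, and asked which genes differed in the same direction in all 3 regions. The study sequenced RNA of 4 brain regions from female mice of the inbred C57BL/6J strain in proestrus, estrus, metestrus and diestrus, to ask how stable the brain transcriptome is across the cycle. The diestrus mice were 90 days old for the libraries numbered 1 and 92 days old for those numbered 2 and 3, and all estrus mice were 90 days old. Each region had 3 diestrus and 3 estrus libraries, so 9 diestrus libraries stood against 9 estrus libraries. The mice received no treatment that the labels name, and each library came from a whole dissected region. The labels do not say whether libraries of equal stage and number came from 1 mouse, nor that libraries of 1 group came from separate mice, so p-values measure the spread between these libraries, which may be technical. Of 37315 genes in the tables, 13713 had enough reads in each of the 3 regions to be tested.

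The estrous cycle is the recurring ovarian cycle of rodents. Estradiol peaks in proestrus, before ovulation, and has fallen by estrus, while diestrus is the stage of the corpus luteum, which secretes progesterone. Estradiol and progesterone act through nuclear receptors in neurons and glia, the hypothalamus being the region with the best known hormone-sensitive circuits, and progesterone metabolites act on GABA-A receptors. Changes of dendritic spines in the hippocampus over the cycle are a textbook case of steroid action on the adult brain.

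Library totals, as multiples of 1000000 counts, lay between 3.21 and 5.03 in diestrus and between 1.83 and 3.73 in estrus in the hypothalamus. They lay between 7.67 and 9.86 in diestrus and between 13.7 and 15.7 in estrus in the hippocampus, and between 4.25 and 5.28 in diestrus and between 6.9 and 8 in estrus in the cerebellum. The depth of the 2 stages therefore did not overlap in the hippocampus and the cerebellum, and the part of depth in the results was not tested. Marker genes fitted the labelled regions, since Avp, which encodes vasopressin, averaged 226 CPM (counts per 1000000 counts, after normalisation between libraries) in the hypothalamus, Neurod6 132 CPM in the hippocampus and Gabra6 407 CPM in the cerebellum, and all 3 stayed below 10 CPM in the other 2 regions. Of the other hippocampal markers, Tdo2 was nearly as high in the cerebellum (3.42 CPM in the hippocampus against 3.4 CPM in the cerebellum) and Wfs1 overlapped the hypothalamus. Hypothalamus Estrus 3 stood apart from the other libraries, with the lowest total, 13.5% of its counts from Lars2 and 14.8% from genes not matched to GENCODE M21, against at most 4.86% and 4.01% in the other libraries. Striatal markers summed to between 447 and 504 CPM in the diestrus hypothalamus and between 470 and 1210 CPM in the estrus hypothalamus, and their mean score was highest in that same library. Several gene list counts turned without it, and those values stand beside the lists.

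No gene passed the test of diestrus against estrus across the 3 regions. With region as a block, 0 of 13713 genes were higher and 0 were lower in diestrus by edgeR's quasi-likelihood test at a Benjamini-Hochberg adjusted p under 0.05, and the smallest adjusted p was 0.99982. At an unadjusted p under 0.05 there were 351 genes (2.56% of those tested), 162 of them higher in diestrus (1.18%) and 189 lower (1.38%). DESeq2 also called 0 genes, with 319 at an unadjusted p under 0.05, and 0 genes were called by limma voom with quality weights for samples, with 770. Without Hypothalamus Estrus 3 the test called 0 genes, with 422 at an unadjusted p under 0.05.

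The joint fit, taking each library as independent, set narrow limits on the mean difference over the 3 regions for most genes. If libraries of equal stage and number came from 1 mouse, these limits may be too narrow. The 95% interval of the log2 difference from limma voom lay wholly within 0.5 of 0 for 12666 genes (92.4%) and within 1 for 13633 genes (99.4%). Its median half-width was 0.176 on the log2 scale. In single regions the share within 0.5 was 45.5% for the hypothalamus, 51.1% for the hippocampus and 67.7% for the cerebellum, so smaller differences in 1 region alone were less well bounded. Within a region edgeR's quasi-likelihood test called 0 genes in each of the 3, with 532 genes (3.49%) at an unadjusted p under 0.05 in the hypothalamus, 532 (3.11%) in the hippocampus and 272 (1.83%) in the cerebellum. DESeq2 called 0, 1 and 0 genes in the same order of regions, the 1 being Gm15716, a gene named after its value was seen. These region counts depended on the filter, since with no filter on low counts edgeR called 67 genes in the hypothalamus, 0 in the hippocampus and 27 in the cerebellum.

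**Figure D1:**
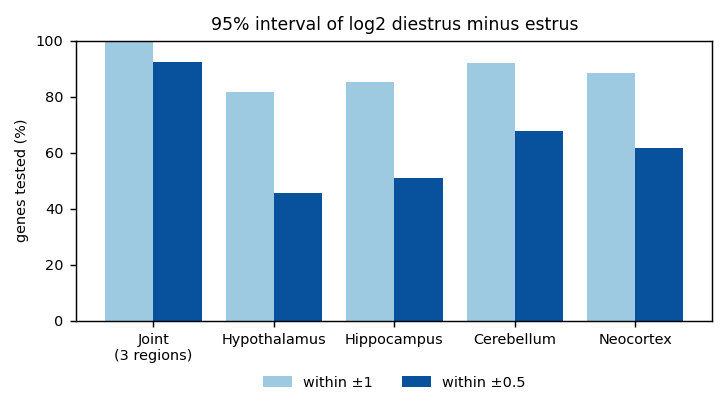
Share of genes tested, in percent, whose 95% interval of the log2 difference of diestrus minus estrus lay within 1 (light) or 0.5 (dark) of 0, in the joint fit and in each region. The joint fit, taking libraries as independent, bounded the mean difference over its regions within 0.5 for 92.4% of its genes. The shares within 0.5 were 45.5% for hypothalamus, 51.1% for hippocampus, 67.7% for cerebellum and 61.7% for neocortex.

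Most genes did not share the sign of the difference among the 3 regions. The within-region difference had the same sign in the hypothalamus, hippocampus and cerebellum for 3181 genes (23.2% of those tested), of which 1583 were higher in diestrus (11.5%) and 1598 lower (11.7%). Across the 13713 genes, Spearman's rho of the regional differences was -0.1 between hypothalamus and hippocampus, -0.08 between hypothalamus and cerebellum and 0.1 between hippocampus and cerebellum. These values are descriptions without a test, since genes are not independent replicates and all points of a region share its 6 libraries. Within 1 region, the 3 diestrus libraries lay wholly above the 3 estrus libraries for 547 genes (3.99%) in the hypothalamus, 461 (3.36%) in the hippocampus and 459 (3.35%) in the cerebellum. They lay wholly below for 540 (3.94%), 556 (4.05%) and 468 (3.41%) genes in the same order of regions. The groups were apart in this way in exactly 2 of the 3 regions for 47 genes in the higher direction (0.343%) and 52 in the lower direction (0.379%). Only Nipal4, lower in diestrus (1 gene, 0.00729%), and Atrn, higher in diestrus (1 gene, 0.00729%), showed this separation in all 3 regions with these settings. Together they were 0.0146% of genes, and neither passed the joint test. The counts that unrelated regions would give, of shared signs or of separation, were not computed, so neither gene is shown to respond to stage.

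Nipal4 encodes a membrane protein of a magnesium transporter family that is best known from the skin. It stood at 3.52, 2.87 and 1.61 CPM in the diestrus hypothalamus, against 3.71, 4.35 and 5.97 CPM in the estrus hypothalamus. In the hippocampus it had 3.48, 3.01 and 3.7 CPM in diestrus, against 4.47, 4.84 and 4.36 CPM in estrus. In the cerebellum it had 4.74, 4.41 and 3.73 CPM in diestrus, against 5.2, 5.72 and 5.24 CPM in estrus. Every diestrus library was thus below every estrus library of its region, though the gap between the nearest libraries was small in the hypothalamus. The joint log2 difference was -0.45 (SE 0.13, unadjusted p = 0.00252, adjusted p = 1 by edgeR's quasi-likelihood test), and it was -0.42 without Hypothalamus Estrus 3. At these levels few reads were counted per library, since 3 counts corresponded to 0.536 to 0.956 CPM in the diestrus hypothalamus and to 0.767 to 2.56 CPM in the estrus hypothalamus. Nipal4 lies at chr11:46148155-46166508 (GRCm38), with no annotated gene overlapping it.

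Atrn encodes attractin, a large transmembrane protein known in mice for pigmentation and for myelin upkeep in the brain. It had 181, 186 and 174 CPM in the diestrus hypothalamus, against 158, 152 and 167 CPM in the estrus hypothalamus. In the hippocampus the values were 252, 244 and 240 CPM in diestrus and 237, 240 and 227 CPM in estrus, so that Diestrus 3 and Estrus 2 were equal to 3 digits and the groups were apart only in the next. In the cerebellum they were 157, 151 and 152 CPM in diestrus and 149, 138 and 146 CPM in estrus. The joint log2 difference was 0.11 (SE 0.04, unadjusted p = 0.0161, adjusted p = 1 by edgeR's quasi-likelihood test). With RLE size factors, or with a mean of at least 1 CPM per region as the filter, the groups were no longer apart in all 3 regions, and this count went to 0.

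**Figure D2:**
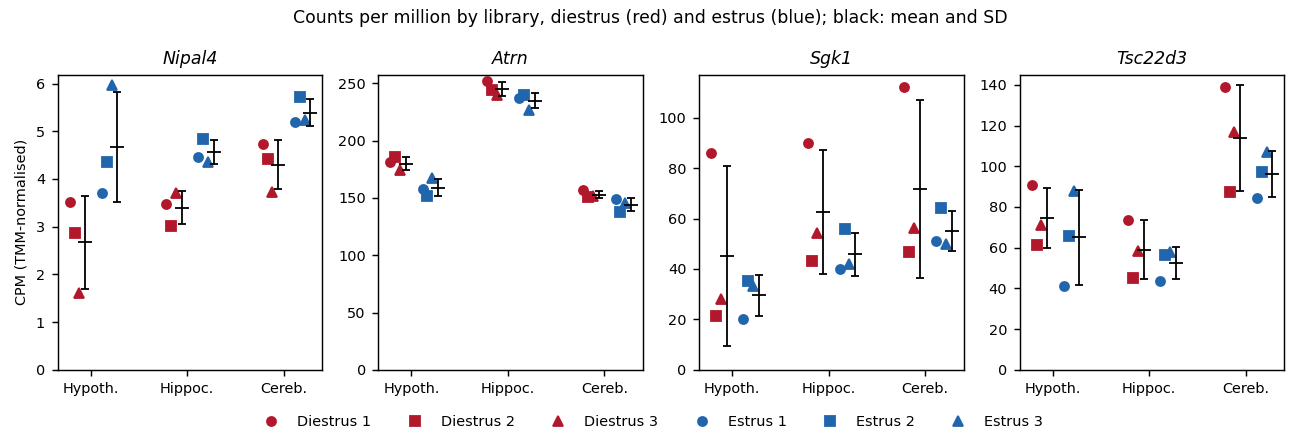
CPM of 4 genes in each library of the hypothalamus, hippocampus and cerebellum, with diestrus in red left of estrus in blue, the symbol giving the library number and the black marks the mean and SD (n = 3). Nipal4 and Atrn separated the stages in every region by small gaps, while Sgk1 and Tsc22d3 were highest in Diestrus 1 in each region.

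The 10 genes higher in diestrus with the smallest p among those of the same sign in 3 regions had log2 differences from 0.17 (Golph3) to 0.42 (ENSMUSG00000045110, not matched to GENCODE M21). None passed the test, and their unadjusted p-values lay between 0.0017 (Rassf8) and 0.00624 (Golph3). Genes of glia were among them. Etnppl, an ethanolamine phosphate lyase found mainly in astrocytes, had 68.5, 65.7 and 61.3 CPM in the diestrus hypothalamus, against 39.3, 51.6 and 43.5 CPM in the estrus hypothalamus. Its hippocampal values overlapped (14.1, 9.03 and 9.25 CPM in diestrus, against 7.89, 9.38 and 12.2 CPM in estrus), and in the cerebellum Diestrus 1 was highest (86.3, 59.3 and 59.5 CPM in diestrus, against 45.7, 56.4 and 54.7 CPM in estrus). The joint log2 difference of Etnppl was 0.36 (SE 0.10), 0.21 without the Diestrus 1 libraries. Fgfr3, a fibroblast growth factor receptor that also marks astrocytes, averaged 140 ± 4.84 CPM in diestrus and 122 ± 5.65 CPM in estrus in the hypothalamus, 111 ± 16.5 CPM and 97.5 ± 2.73 CPM in the hippocampus in the same order of stages, and 79.1 ± 5.03 CPM and 71.1 ± 5.34 CPM in the cerebellum (SD, n = 3 each). Over the whole astrocyte list the median log2 difference was 0.01, with 4 of 15 members higher and 2 lower in all 3 regions, and 1 higher and 4 lower without the Estrus 1 libraries.

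Rassf8, a Ras association domain protein of cell junctions, averaged 60.0 ± 2.71 CPM in diestrus and 50.2 ± 3.54 CPM in estrus in the hypothalamus, with a joint log2 difference of 0.24 (SE 0.07). Eif3f, a subunit of translation initiation factor eIF3, averaged 80.5 ± 9.69 CPM in diestrus and 65.5 ± 5.88 CPM in estrus in the hippocampus, and its diestrus libraries were all above the estrus libraries there and in the cerebellum, but not in the hypothalamus. Dph1, which starts the synthesis of diphthamide on elongation factor eEF2, and Gpr135, an orphan G protein-coupled receptor, were also apart in 2 regions. Reads of Dph1 may be shared with Ovca2, which overlaps it on the same strand. Arhgef18 (a RhoA exchange factor), Ppig (a nuclear peptidyl-prolyl isomerase) and Golph3 (a Golgi protein) had joint log2 differences of 0.22, 0.19 and 0.17, and each separated the stages in 1 region. Without the Estrus 2 libraries the value of Arhgef18 was 0.13.

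Among the 10 genes lower in diestrus, Medag had the smallest p of any gene tested. This gene is named for estrogen-dependent adipogenesis in mesenteric fat, where it was first described. It had 7.49, 8.92 and 7.68 CPM in the diestrus hypothalamus, against 8.16, 9.97 and 11.9 CPM in the estrus hypothalamus. In the hippocampus it had 3.8, 2.75 and 3.81 CPM in diestrus, against 4.87, 5.88 and 4.68 CPM in estrus, and in the cerebellum 18.5, 21.3 and 20.2 CPM in diestrus, against 27.5, 28.1 and 20.7 CPM in estrus. The stages were apart in the hippocampus, overlapped in the cerebellum through Diestrus 2 and Estrus 3, and overlapped in the hypothalamus. The joint log2 difference was -0.39 (SE 0.10, unadjusted p = 0.000785, adjusted p = 1 by edgeR's quasi-likelihood test).

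Mid1, a microtubule-bound ubiquitin ligase encoded on the X chromosome, had a joint log2 difference of -0.48 (SE 0.13, unadjusted p = 0.000923) and overlapped between stages in every region. Without the Estrus 1 libraries the difference was -0.28. Its highest value in the hypothalamus was 120 CPM in Estrus 1, against 50.7 to 72.7 CPM in the 3 diestrus libraries, and 5 annotated genes overlap it on the opposite strand. Col12a1, which encodes the chain of collagen XII, had its largest difference in the cerebellum, with 3.39, 2.47 and 2.95 CPM in diestrus, against 5.57, 6.28 and 7.23 CPM in estrus. Its hypothalamic libraries overlapped, at 13.2, 17.2 and 11.1 CPM in diestrus and 13.4, 16.9 and 14.5 CPM in estrus, and its regional log2 differences were -0.12 in the hypothalamus, -0.40 in the hippocampus and -1.05 in the cerebellum. Lgr5, an R-spondin receptor of the Wnt pathway, also had its largest difference in the cerebellum, at 8.36, 9.17 and 9.43 CPM in diestrus, against 12.5, 12.3 and 13.3 CPM in estrus. Cacng3, an auxiliary subunit of AMPA receptors, was near -0.3 in every region (-0.33 in hypothalamus, -0.35 in hippocampus and -0.29 in cerebellum) and separated the stages in the hippocampus, with 36.6, 36.9 and 32.2 CPM in diestrus and 40, 43.7 and 51.9 CPM in estrus. Its joint log2 difference was -0.33, and -0.18 without the Estrus 3 libraries.

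Cfap54, a protein of motile cilia, had a joint log2 difference of -0.56 (SE 0.17) with overlapping stages in all 3 regions, its highest value being 32.7 CPM in Hypothalamus Estrus 1. Hydin, another protein of motile cilia and the ependymal marker with the smallest p, had 6.17, 12.1 and 11.6 CPM in the diestrus hypothalamus, against 34.9, 13.8 and 8.53 CPM in the estrus hypothalamus, and a joint log2 difference of -0.69 (SE 0.22, unadjusted p = 0.00486). Without the Estrus 1 libraries that difference was -0.41. Ependymal markers summed to between 143 and 191 CPM in the diestrus hypothalamus and between 185 and 266 CPM in the estrus hypothalamus. They summed to between 69.6 and 113 CPM in diestrus and between 72.9 and 83.7 CPM in estrus in the hippocampus, and to between 82.7 and 96 CPM in diestrus and between 86.6 and 107 CPM in estrus in the cerebellum. Their part in the values of Cfap54 was not tested, and in bulk tissue fewer cells of a type and less RNA per cell cannot be told apart. The last members were Zfp951, a zinc finger gene, Gm13307, an antisense gene that overlaps 4 others, and the unmatched ENSMUSG00000092327, with joint log2 differences of -0.71, -0.69 and -0.45.

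**Figure D3:**
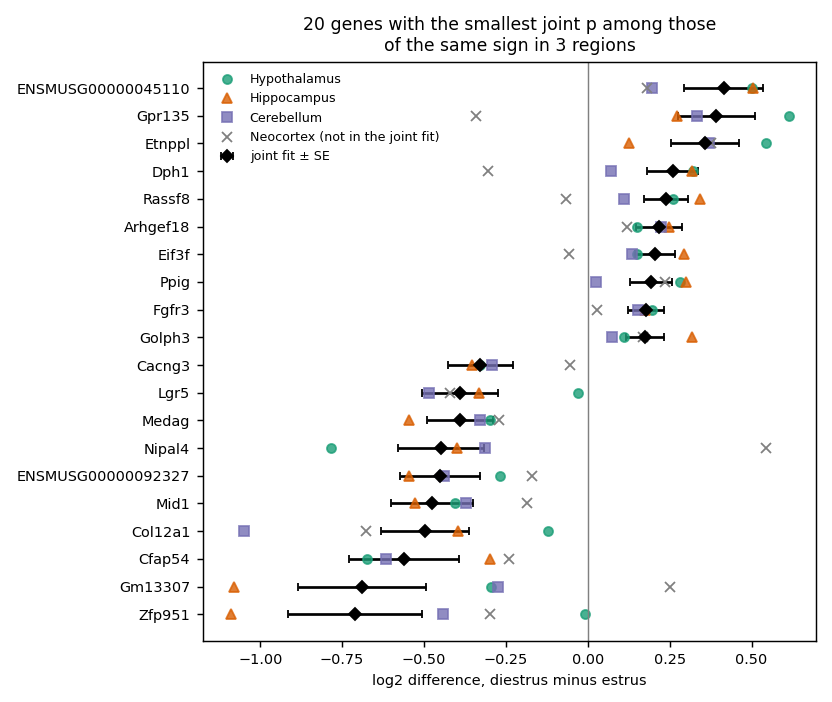
Log2 difference of diestrus minus estrus for the 20 genes with the smallest joint p among those of the same sign in 3 regions, in the joint fit (black, with SE) and in each region, with the neocortex as grey crosses. Values of the 3 regions are differences of mean log2 CPM, while the joint and neocortex values are edgeR estimates. The joint values ran from -0.71 to 0.42. In the neocortex 14 of the 20 had the same sign, against 58.1% of all genes with a shared sign in the 3 regions that were tested there. The neocortex was not used to choose the genes, but its libraries may come from the same mice.

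Among lists with over 10 members tested, glucocorticoid-responsive genes had the highest count of shared signs in 1 direction relative to list size. GABA-A receptor subunits, with 10 members tested, had a higher share, at 6 of 10. Glucocorticoid-responsive genes are switched on by the glucocorticoid receptor when corticosterone, the main adrenal stress hormone of mice, rises. Of 33 listed genes 30 passed the filter, 0 were called, and 3 had an unadjusted p under 0.05. The difference was above 0 in all 3 regions for 17 of the 30 (11.5% over all genes) and below 0 in all 3 for 0 (11.7% over all genes). In the joint fit 28 of 30 were above 0 (6824 of 13713 over all genes). The median joint log2 difference was 0.14, and it was 0.15 in the hypothalamus, 0.10 in the hippocampus and 0.20 in the cerebellum. The median over all genes tested was -0.00055.

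This pattern lay in 1 number of each region. The mean score of the list, in log2 CPM relative to the mean of the region, was 0.53, -0.11 and -0.15 in diestrus libraries 1, 2 and 3 of the hypothalamus, against -0.32, -0.0074 and 0.05 in estrus libraries 1, 2 and 3. In the hippocampus it was 0.31, -0.06 and -0.07 in diestrus, against -0.17, -0.03 and 0.02 in estrus. In the cerebellum it was 0.44, -0.11 and -0.02 in diestrus, against -0.25, -0.12 and 0.06 in estrus. Diestrus 1 was thus the highest and Estrus 1 the lowest library of each region, and Diestrus 2 and Diestrus 3 lay within the range of the estrus libraries. Diestrus 1 was the highest of the 6 libraries for 22 of the 30 genes in the hypothalamus, 20 in the hippocampus and 23 in the cerebellum, against 11.6%, 17% and 21% of all genes tested. It was highest in all 3 regions for 13 of the 30 (43.3%), against 72 of 13713 genes (0.525%). Without the Diestrus 1 libraries the median of the list was -0.03 and the shared signs were 4 higher and 3 lower of 30. Without the Estrus 1 libraries they were 7 higher and 3 lower of 31. Diestrus 1 was also the only diestrus number with mice of 90 days, an age shared by all estrus libraries, Estrus 1 among them. The part of age, of the mouse or mice used and of handling in the Diestrus 1 values was not tested. Within diestrus these cannot be told apart.

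Sgk1, Hif3a, Plin4, Tsc22d3 and Txnip were each highest in Diestrus 1 in all 3 regions. Estrus 1 was lowest in all 3 regions for 6 of the 30 listed genes, against 0.583% of all genes tested. Tsc22d3 and Txnip were among those 6, but Sgk1, Hif3a and Plin4 were not. Sgk1, the serum and glucocorticoid regulated kinase, had 86.1, 21.4 and 28.1 CPM in the diestrus hypothalamus, against 20, 35.3 and 33.3 CPM in the estrus hypothalamus. In the hippocampus it had 90.1, 43.3 and 54.4 CPM in diestrus, against 39.8, 55.7 and 41.8 CPM in estrus, and in the cerebellum 112, 46.9 and 56.4 CPM in diestrus, against 51.2, 64.3 and 50 CPM in estrus. Only the first value of each diestrus trio lay above the estrus libraries. Its joint log2 difference was 0.47 (SE 0.21, unadjusted p = 0.038, adjusted p = 1 by edgeR's quasi-likelihood test), and -0.05 without the Diestrus 1 libraries. Hif3a, a hypoxia-inducible factor subunit that also responds to glucocorticoids, had 18.1, 8.92 and 3.75 CPM in the diestrus hypothalamus, against 5.57, 6.13 and 0.853 CPM in the estrus hypothalamus. The last value, of Hypothalamus Estrus 3, lay below the 2.56 CPM that 3 counts made in that library. The joint log2 difference of Hif3a was 0.66 (SE 0.29, unadjusted p = 0.031 by edgeR), and 0.16 without Diestrus 1. Plin4, a coat protein of lipid droplets, had 15.5, 10.2 and 4.35 CPM in the diestrus hippocampus, against 4.54, 3.87 and 9.05 CPM in the estrus hippocampus, and 0.57 as its joint log2 difference (SE 0.25, unadjusted p = 0.0318), 0.11 without Diestrus 1. Tsc22d3, which encodes the glucocorticoid-induced leucine zipper, was highest in Diestrus 1 and lowest in Estrus 1 in every region, with 139 CPM in Diestrus 1 and 84.3 CPM in Estrus 1 of the cerebellum. Txnip, an inhibitor of thioredoxin, shared both extremes. Nr3c1, the glucocorticoid receptor itself, had a joint log2 difference of 0.03 (SE 0.07), and Fkbp5, its co-chaperone and a standard marker of its activity, 0.10 (SE 0.12), and -0.05 without Diestrus 1.

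Promoter bases of Sgk1 and Hif3a are shown because these genes were highest in Diestrus 1 in all 3 regions and differ in whether the letters of a receptor half-site are present. Each line holds 250 bases before the gene's start from RefSeq (GRCm38.p6), 5′ to 3′ on the gene's strand, from chr10:21881934-21882183 (plus strand) for Sgk1 and chr7:17062428-17062677 (minus strand) for Hif3a. Capitals mark the half-site of the glucocorticoid response element, searched as AGAACA and TGTTCT, which covers both strands.
Sgk1: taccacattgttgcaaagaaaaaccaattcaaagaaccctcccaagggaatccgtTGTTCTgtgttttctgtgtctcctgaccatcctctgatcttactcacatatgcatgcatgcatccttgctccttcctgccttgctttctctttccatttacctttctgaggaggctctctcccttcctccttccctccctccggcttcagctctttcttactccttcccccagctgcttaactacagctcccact
Hif3a: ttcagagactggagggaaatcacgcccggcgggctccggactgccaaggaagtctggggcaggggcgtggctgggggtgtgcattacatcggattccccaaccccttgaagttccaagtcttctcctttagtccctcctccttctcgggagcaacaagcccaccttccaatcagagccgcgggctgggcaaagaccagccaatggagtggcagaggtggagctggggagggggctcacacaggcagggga
Sgk1 held 1 match in this window, which lies before the annotated start of the gene and is 1 of 6 Sgk1 promoters in RefSeq, and Hif3a held 0. The same window of Tsc22d3 held 1 match and that of Plin4 held 0. Over 32851 mouse promoters of this length, 16.1% held the half-site, so a match is a description and not a binding site. None of the 4 windows held the E-box CACGTG (6.02% of promoters) or the palindromic estrogen response element (0.0639%), each searched on both strands.

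**Figure D4:**
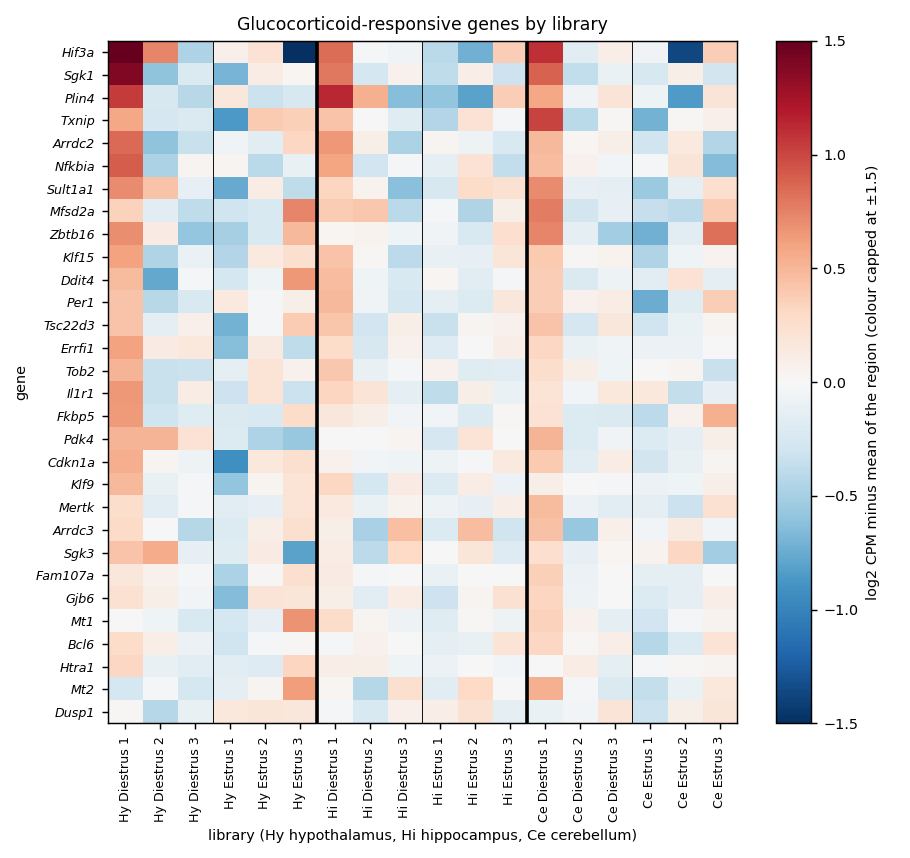
Log2 CPM of 30 glucocorticoid-responsive genes in the 18 libraries, each gene relative to its mean in the region, with red above and blue below that mean. In all 3 regions the Diestrus 1 column is the reddest, with mean scores of 0.53, 0.31 and 0.44 in hypothalamus, hippocampus and cerebellum, and the Estrus 1 column is the bluest.

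Receptors of the ovarian steroids were measured in the same way. Of 19 sex steroid receptor and coregulator genes 17 passed the filter and 0 were called, with 3 higher and 2 lower in all 3 regions (29.4%, against 23.2% of all genes) and a median log2 difference of -0.02. Pgr, the progesterone receptor, had 19.4, 18.8 and 22.9 CPM in the diestrus hypothalamus, against 43.4, 15.6 and 21.3 CPM in the estrus hypothalamus, where only Estrus 1 was high. Its joint log2 difference was -0.21 (SE 0.14), and -0.03 without the Estrus 1 libraries. Esr1, the estrogen receptor alpha, did not pass the filter in all 3 regions, and it averaged 27.1 ± 7.64 CPM in diestrus and 27.2 ± 3.78 CPM in estrus in the hypothalamus (SD, n = 3 each). Of 24 estrogen-responsive genes 12 passed, with a median of 0.03, and Xbp1, a transcription factor of the unfolded protein response, was the 1 member at an unadjusted p under 0.05 (0.18, SE 0.08), with 0.07 without the Estrus 1 libraries.

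GABA-A receptor subunits had 6 of 10 tested members higher in all 3 regions and 0 lower, a share of 60% (23.2% over all genes in both directions). Their median log2 difference was 0.09. Gabrb1, the subunit with the smallest p, had a joint log2 difference of 0.16 (SE 0.10, unadjusted p = 0.113), and 0.07 without the Diestrus 3 libraries. The regional medians were 0.17 in the hypothalamus, 0.0099 in the hippocampus and 0.05 in the cerebellum. Without the Diestrus 3 libraries 0 of 11 members were higher and 1 lower in all 3 regions, with a median of 0.0057. Gabrd, the delta subunit of extrasynaptic receptors, did not pass the filter in the hypothalamus, where it had 0.22, 0.319 and 0.536 CPM in diestrus and 0, 0.256 and 11.9 CPM in estrus, the last being the library that stood apart. Its cerebellar level averaged 140 ± 12.9 CPM in diestrus and 137 ± 3.1 CPM in estrus (SD, n = 3 each). Ionotropic glutamate receptor genes had 6 of 17 higher and 0 lower in all regions, Grin2a being the 1 at an unadjusted p under 0.05 (0.20, SE 0.08), with 166, 158 and 174 CPM in the diestrus hippocampus, against 130, 156 and 116 CPM in the estrus hippocampus. Without the Estrus 2 libraries 1 member of this list was higher and 2 lower, and its median was -0.03, against 0.03 with them.

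Cholesterol synthesis genes had 3 of 23 higher and 7 lower in all regions, with a median of -0.03. Mvd and Nsdhl, enzymes of the early and late parts of that pathway, had joint log2 differences of -0.24 (SE 0.09, unadjusted p = 0.0183) and -0.22 (SE 0.10, unadjusted p = 0.0411), and Nsdhl had -0.135 without the Diestrus 2 libraries. Without the Estrus 3 libraries 2 members of the list were higher and 12 lower, while 2 were higher and 3 lower without the Diestrus 2 libraries. Heat shock and cold-inducible genes had 10 of 24 higher and 1 lower (45.8%, against 23.2% over all genes), with a median of 0.06. Without the Estrus 1 libraries 4 were higher and 3 lower. Dnajb1, a co-chaperone of Hsp70, had 0.16 (SE 0.07, unadjusted p = 0.0316) and separated the stages in the cerebellum, with 43.8, 42 and 44.6 CPM in diestrus and 36.4, 41.5 and 37.3 CPM in estrus. Without the Diestrus 1 libraries its difference was 0.087. Core clock genes had 1 of 23 higher and 5 lower, with Npas2, a partner of Bmal1, at -0.34 (SE 0.13, unadjusted p = 0.0154 by edgeR). Of these genes 1 was higher and 8 lower without either the Estrus 1 or the Estrus 2 libraries. The counts were 2 higher and 3 lower without the Estrus 3 libraries, and 2 and 4 without the Diestrus 2 libraries. Per1, Per2, Dbp and Arntl had joint log2 differences of 0.13, -0.08, -0.06 and -0.05, and Per1 had -0.08 without the Diestrus 1 libraries. Immediate early genes, which neurons switch on within minutes of activity, had 3 of 24 higher and 2 lower, with a median of -0.02, and delayed activity genes 4 of 19 higher and 2 lower, with a median of 0.0099. Interferon-stimulated genes had 5 of 16 higher and 1 lower, with Ifit1, an antiviral RNA-binding protein, at 0.47 (SE 0.22, unadjusted p = 0.0405), and at 0.28 without Cerebellum Diestrus 1. The list had 3 higher and 4 lower of 17 without the Diestrus 2 libraries, 2 higher and 1 lower of 16 without the Estrus 1 libraries, and 2 of each without Hypothalamus Estrus 3.

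The remaining functional lists sat near 0. Neurosteroid genes had a median of -0.03 over 11 members tested, postsynaptic scaffolds -0.02 over 17, mitochondrially encoded genes 0.04 over 15 and nuclear oxidative phosphorylation genes 0.01 over 70. Ndufa11 and Cox5b of complexes I and IV were the 2 members of the last list at an unadjusted p under 0.05 (0.22, SE 0.08, and 0.15, SE 0.06). Without Hypothalamus Estrus 3 that list had 12 members higher and 2 lower in all regions, against 6 and 8 with it, and postsynaptic scaffolds 2 and 0, against 0 and 2. Cytosolic ribosomal protein genes had 3 of 75 higher and 12 lower in all regions, with a median of -0.0067 whose sign changed in 12 of 38 other settings. Their balance turned with the libraries, with 15 higher and 8 lower without Hypothalamus Estrus 3, 13 and 1 without the Estrus 2 libraries, 8 and 3 without Diestrus 2, and 1 and 21 without Estrus 1. Nuclear-retained noncoding RNAs had a median of 0.05 over 7, and common control genes -0.03 over 14, with Actb at -0.05 (SE 0.09) and Gapdh at -0.03 (SE 0.07).

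Marker lists of other cells had medians of differing sign between regions. Oligodendrocyte and myelin markers had a median log2 difference of -0.34 in the hypothalamus, 0.07 in the hippocampus and 0.08 in the cerebellum, and striatal markers of -0.41, 0.20 and 0.06 in the same order. Without Hypothalamus Estrus 3 the hypothalamic medians were -0.24 for the oligodendrocyte list and -0.0026 for the striatal list, and 3 of 8 striatal markers were higher and 1 lower in all regions, against 0 and 1 with it. Choroid plexus markers had -0.04, 0.35 and 0.42, with 8 of 20 passing the filter and 3 higher in all regions, and meningeal markers 0.26, -0.02 and 0.21, with 7 of 17 higher and 1 lower. The joint median of the meningeal list was 0.15, and -0.09 without the Estrus 1 libraries, where 1 of 18 was higher and 2 lower, while 13 were higher and 1 lower without the Estrus 3 libraries. The summed choroid plexus level ran from 1080 to 2880 CPM in diestrus and from 432 to 2270 CPM in estrus in the cerebellum. Summed marker levels overlapped between stages in every region except in the hippocampus, where endothelial and pericyte markers summed to 501 to 516 CPM in diestrus and 532 to 561 CPM in estrus, and striatal markers to 411 to 462 CPM in diestrus and 363 to 384 CPM in estrus. Joint medians of the other marker lists were -0.06 for ependymal cells, -0.03 for microglia, -0.05 for endothelial cells and pericytes, -0.04 for blood cells, -0.03 for thalamic neurons and 0.07 for the single pituitary marker tested. Their part in the results was not tested.

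**Figure D5:**
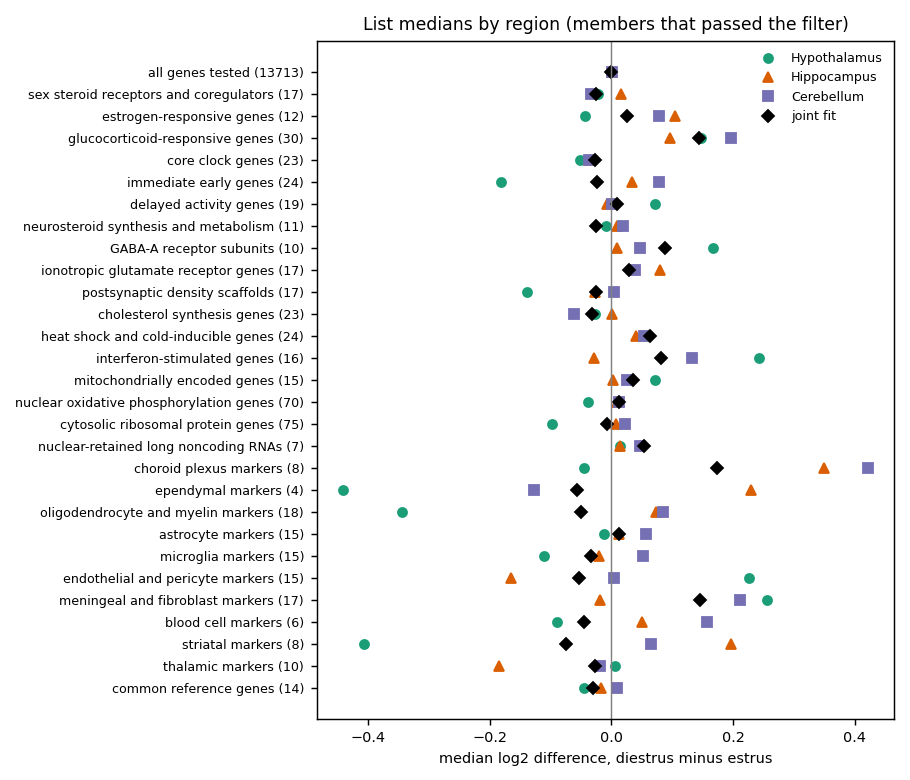
Median log2 difference of diestrus minus estrus of each gene list with at least 3 members that passed the filter, with their number in brackets and all genes tested on top, in the joint fit (black) and in each region. The joint medians lay between -0.07 and 0.17, and the regional medians of glucocorticoid-responsive genes were 0.15, 0.10 and 0.20.

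The stage difference was next compared among the 3 regions. The interaction of region and stage was called for 0 of 13713 genes by edgeR's quasi-likelihood test, with 314 (2.29%) at an unadjusted p under 0.05 and a smallest adjusted p of 0.99977, and DESeq2's likelihood ratio test called 0, with 287. The smallest interaction p belonged to Bach2, a transcription factor of lymphocytes and neurons, with -0.25 in the hypothalamus, -0.38 in the hippocampus and 0.62 in the cerebellum. Cbln1, the synapse organiser of cerebellar granule cells, was among the first 5, with -0.03, -1 and -0.10 in the same order. Without the Diestrus 3 libraries 6 genes were called (Fyco1, Eif4e2, E2f1, Mrgpre, Tmco1 and Tmem245, named after their values were seen), and with no filter on low counts 52 genes were called, so the count of 0 depends on these choices.

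The neocortex was not part of the joint fit and had 3 diestrus and 2 estrus libraries here. The interaction of neocortex and stage over 23 libraries was called for 0 of 13659 genes by edgeR's quasi-likelihood test, with 536 (3.92%) at an unadjusted p under 0.05, and for 0 by DESeq2, with 528. Of the 20 named genes, 14 had the same sign in the neocortex, and of all 3173 genes with a shared sign in the 3 regions that were also tested there, 1843 did (58.1%). Nipal4 was not among them, with a log2 difference of -0.45 in the 3 regions and 0.54 in the neocortex (unadjusted p = 0.00248 and adjusted p = 0.993 for the interaction by edgeR). Dph1 had 0.26 in the 3 regions and -0.31 in the neocortex (unadjusted p = 0.000784 and adjusted p = 0.834 for the interaction by edgeR). Col12a1 had -0.50 in the 3 regions and -0.68 in the neocortex (unadjusted p = 0.423 and adjusted p = 0.993 for the interaction by edgeR).

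Immediate early genes had a joint median of -0.02 in the 3 regions, whose sign changed in 12 of 38 other settings. Their regional medians were -0.18 in the hypothalamus, 0.03 in the hippocampus and 0.08 in the cerebellum. In the neocortex the median was 0.38, and 22 of 24 were above 0 (7075 of 13670 over all genes). Egr1, a transcription factor induced by neuronal activity, had 76.9, 29 and 47.4 CPM in the diestrus hypothalamus, against 72.4, 66.2 and 72.5 CPM in the estrus hypothalamus, and a joint log2 difference of -0.23 (SE 0.12; -0.12 without the Diestrus 2 libraries), against 0.74 in the neocortex (unadjusted p = 0.000793 and adjusted p = 0.834 for the interaction by edgeR). Arc, a postsynaptic regulator of AMPA receptor uptake, had -0.07 in the 3 regions and 0.71 in the neocortex (unadjusted p = 0.00235 and adjusted p = 0.993 for the interaction by edgeR). With no filter on low counts the interaction was called for 4 genes, Egr1, Homer1, Nr4a2 and Fosl2, all induced by neuronal activity and, apart from Egr1, named after their values were seen. Glucocorticoid-responsive genes had a median of 0.14 in the 3 regions and 0.21 in the neocortex, and Sgk1 had 0.47 and 0.61 in the same order (unadjusted p = 0.767 and adjusted p = 0.996 for the interaction by edgeR). Without the Diestrus 1 libraries the list median was -0.03 and Sgk1 -0.05 in the 3 regions. The neocortex values include its own Diestrus 1 library, which may share a mouse with those, and are not given without it.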

How the data were processed

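Per the labels' protocols, RNA of whole regions was sequenced on an Illumina HiSeq instrument. Libraries of the hippocampus were made by a protocol of their own and those of the other regions with NEBNext Ultra. Spike-in RNA went into each library, and lanes held several libraries. Per the submitters' processing notes, the builds were GRCm38 and mm10 and the tools included TopHat2 2.0.8, Trimmomatic 0.32, Cufflinks 2.1.1, DESeq 1.12.1 and SAMtools. The sources used here name neither the counting program nor the annotation release or use of strand, so reads of overlapping genes may be shared. The authors deposited raw counts per gene without normalization. The third neocortex estrus library was not analysed here, and each of the 47 columns was read. GENCODE M21 named 35533 of 37315 genes, and the other 1782 kept their identifiers. No pair of libraries held identical counts.

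Genes had to pass filterByExpr by stage (minimum count 10, minimum total 15) in each of the 3 regions. The 18 libraries were fitted with edgeR 4.0.16 in R 4.3.3 (quasi-likelihood, TMM factors, region as a block and stage), with Benjamini-Hochberg adjustment over all genes and a threshold of 0.05. Tests and intervals within a region, and the neocortex values, came from fits on all 12 libraries of a region (11 in the neocortex). Log2 differences, signs and list medians of each of the 3 regions were differences of mean log2 CPM. They used only its diestrus and estrus libraries, the TMM factors of the joint fit and a prior count of 2. Tests of differences between regions came from interaction terms. Intervals came from voom in limma 3.58.1. Levels are CPM with TMM factors, scores use a prior count of 2 on the log2 CPM scale, and differences are log2 of diestrus over estrus. Floors of 3 counts cover only counting error, because reads lack molecular identifiers and are not independent molecules. The joint test was also run on simulated counts drawn independently for each library. That run cannot show the effect of mice shared between regions.

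The comparison, the 29 gene lists and the members were chosen with earlier results of these data known. The rule named called genes, otherwise up to 10 genes per direction with the smallest p among those of the same sign in 3 regions, up to 3 genes per list, and a fixed set of hormone, clock, activity and control genes. Other named genes were chosen after their values were seen, and some that the rule names are given in figures or counts only. Alternatives were DESeq2 1.42.0, RLE factors, other filters, voom with quality weights, a random block of stage and number, means over regions, a replicate block, age, all 4 stages, and leaving out regions, replicates or libraries. The 95% intervals and the list values without Hypothalamus Estrus 3 were chosen after seeing the data. Equal numbers do not show a pairing. Deviations from group means correlated above 0.1 in 2 of 9 pairs of diestrus and estrus libraries of 1 region and number, and in 8 of 18 pairs of 1 stage and number across regions.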

Additional observations from a re-analysis of the deposited data

How the results depend on the processing

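The joint count of 0 genes in each direction was the same with DESeq2, RLE factors, 3 other filters, voom with quality weights or a random block of stage and number, all 4 stages, and without any 1 region, replicate number or library. Exceptions were means over regions, which called 1 gene lower (ENSMUSG00000089855, adjusted p = 0.00351 by limma, at least 0.273 in the other settings, not matched to GENCODE M21, up to 15100 CPM in Hypothalamus Estrus 3, chosen after its values were seen), and age as a covariate, which called 1 gene higher (Sgk1, log2 difference 1.18, adjusted p = 0.000626 by edgeR, at least 0.878 in the other settings). By construction the age term leaves Diestrus 1 as the only diestrus number of the estrus age. The replicate block, whose pairing the data do not show, called 0 genes in the joint test, in each region and in both interactions, with 322 genes at an unadjusted p under 0.05 in the joint test. Groups apart in every region were 0 higher with RLE factors or a mean of at least 1 CPM, against 1. Without each replicate number in turn they were 6 to 17 higher and 3 to 12 lower, and 2 higher and 3 lower without Hypothalamus Estrus 3. Fewer libraries separate more easily, and the filter and normalisation were redone each time. The part of each in these counts was not tested. With no filter, calls numbered 67 in the hypothalamus, 27 in the cerebellum, 226 in the neocortex, 52 in the interaction among 3 regions (43 of them in the filtered test) and 4 in that with the neocortex; the 67, 27 and 226 were all genes of the filtered test, and the cause was not tested. The hippocampus had 1 call with DESeq2, 7 with voom and quality weights, and 0 to 1 without each replicate, the 1 being Gm10250 without Diestrus 3. The neocortex had 49 with DESeq2 and 0 to 1 without each replicate, namely Adora2a without Estrus 2 and Arl5b without Diestrus 2. The interaction among 3 regions had 0 to 6 without each replicate number, the 6 without Diestrus 3. Of 5428 alternative values of named genes, 5185 moved by less than the error, 241 moved further and 150 changed sign; of 1102 list medians 114 changed sign. Libraries held fewest counts in the hypothalamus (1.83 to 5.03 times 1000000). The median half-width of the 95% intervals (log2) was 0.39 there, 0.38 in the hippocampus and 0.28 in the cerebellum. Each median is over the genes tested in that region, which differ in number, and the part of depth was not tested.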
